A study of Mus musculus with 8 samples.

Results

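The genes described here handle glutathione, peroxides, superoxide, quinones, free metal ions and iron storage. They were chosen by name. A gene was a member when it was protein-coding, its row in the deposited table held 8 counts, and its symbol named a glutathione S-transferase (Gst), a gamma-glutamyltransferase (Ggt), a glutathione peroxidase (Gpx), a peroxiredoxin (Prdx), sulfiredoxin (Srxn1), a thioredoxin-related protein (Txn), a glutaredoxin (Glrx), a superoxide dismutase (Sod), catalase (Cat), a quinone reductase (Nqo), a heme oxygenase (Hmox), an enzyme of glutathione synthesis or reduction (Gclc, Gclm, Gss, Gsr), a metallothionein (Mt), a dipeptidase (Dpep) or a ferritin chain (Fth1, Ftl1). In all, 54 genes met this rule, out of 35880 rows with 8 counts, 12286 of them protein-coding. Another 33 rows with matching names, of 32 different genes, held 10 values, which the 8 library names do not account for, and these genes are not analysed here. Gsr, Txn1, Nqo1, Hmox1, Dpep1, Prdx3, Prdx6 and Gsta3 are among them, so the account has gaps at glutathione reductase, at thioredoxin itself and at both best known inducible enzymes of quinone and heme breakdown.

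Kidney RNA of WT mice was sequenced as 8 libraries, 4 from the control group, which received saline, and 4 from the cisplatin group. The study's methods describe male C57/BL6J mice and a single intraperitoneal cisplatin dose of 23 mg/kg, and kidneys were taken 72 h after injection. Cisplatin is a platinum chemotherapy drug that accumulates in the proximal tubule and injures it. By their labels the controls are replicates 1, 2, 3 and 5 and the treated kidneys replicates 1, 3, 4 and 6, and the p-values given here measure the spread between these kidneys.

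Glutathione is a small peptide of glutamate, cysteine and glycine and the main soluble thiol of the cell. Glutamate-cysteine ligase and glutathione synthetase build it, glutathione peroxidases spend it on peroxides, S-transferases join it to electrophiles, and gamma-glutamyltransferase at the brush border of the proximal tubule breaks it down again outside the cell. Thioredoxin and peroxiredoxins form a parallel thiol system, and metallothioneins and ferritin hold zinc, copper, cadmium and iron. Many of these genes carry antioxidant response elements, which the factor Nrf2 binds together with small Maf proteins, while metallothionein genes carry metal response elements bound by the zinc sensor Mtf1.

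The total count over the usable rows ranged from 10953338 to 16701599 per library, and 3 counts, taken as the smallest measurable level, corresponded to 0.18 to 0.274 CPM (reads of a gene relative to the total of its library) before normalization, a limit that covers counting error only. In a principal component analysis of all genes, treatment ran along the first component (73.55% of the variance). The second (15.96%) set control 5, cisplatin 4 and cisplatin 6, called the second library set, against the other 5 libraries, called the first. The labels name no batch. Although the methods describe males, Y-linked Kdm5d had 2 counts in cisplatin 1, none in cisplatin 3 and 274 to 576 elsewhere, and Eif2s3y likewise had 3, none and 541 to 1333. Values are therefore also given without cisplatin 1 and 3, and for the first set alone (control 1, 2 and 3 against cisplatin 1 and 3). In the cisplatin group these missing counts cannot be told apart from the library set. Without cisplatin 1 and 3, the cisplatin group holds second-set libraries only, while control 1, 2 and 3 are of the first set. Treatment and library set are therefore largely mixed in that fit.

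Cisplatin was followed by changes in both directions. Of the 54 members, 51 passed the expression filter, and Prdx6b, Gpx5 and Txndc8, each with at most 1 count in any library, did not. Among the 51, 14 (27.5%) were higher and 11 (21.6%) were lower in the cisplatin kidneys by edgeR's quasi-likelihood test. A call required a Benjamini-Hochberg adjusted p under 0.05 together with a log2 fold change of 1 or more in size. Of all 9141 genes tested, 19.2% were higher and 15.7% were lower by the same rule, 34.9% in either direction. The median log2 fold change of the members was 0.10 and that of all genes 0.08. The 4 cisplatin libraries lay wholly above the 4 controls for 16 members and wholly below them for 13 (23.7% and 22.5% of all genes), together 56.9% of those tested against 46.3% of all genes. Without cisplatin 1 and 3 the counts were 15 higher and 11 lower (21.4% and 20.5% of all genes), and in the first set alone 12 and 15 (17.6% and 16.3%). Scaling by total library size in place of TMM raised the median of all genes by 0.57 on the log2 scale and gave 20 members higher and 9 lower (34.7% and 8.78% of all genes).

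**Figure D1:**
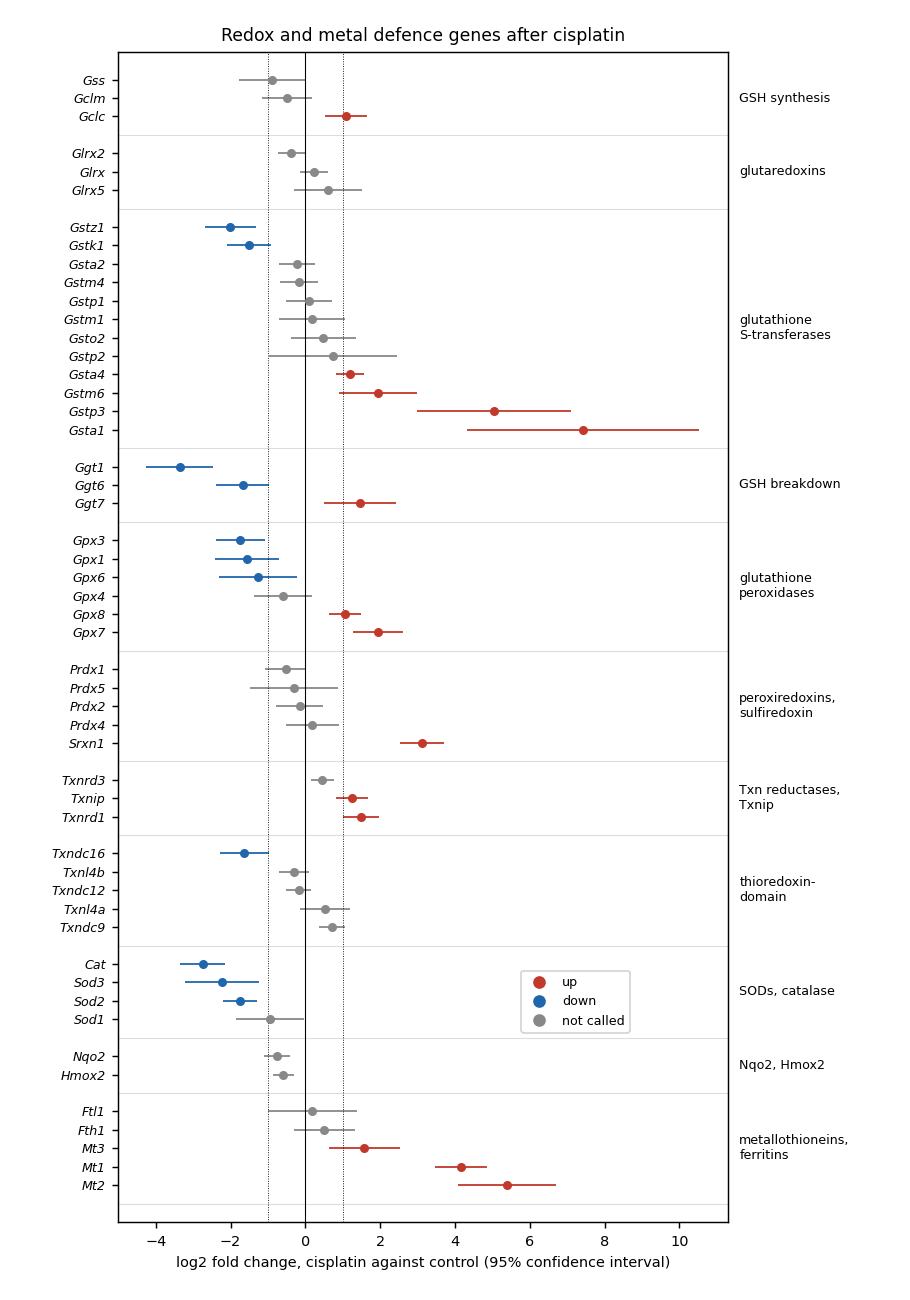
Log2 fold change of cisplatin against control for the 51 members tested, with 95% confidence intervals (4 libraries a group), ordered within families. Red points are higher, blue points lower and grey points not called, and the dotted lines mark a log2 fold change of 1 in either direction. Srxn1, Mt1, Mt2, Gstp3 and Gsta1 lie farthest to the right, and Ggt1, Cat and Sod3 farthest to the left.

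Metallothionein genes rose. Metallothioneins are small cysteine-rich proteins that bind zinc, copper and cadmium and also react with platinum. Mt1 and Mt2 lie side by side on chromosome 8 of GRCm38, and the 280 bases around each start (250 before it and 30 after it, from RefSeq, GRCm38.p6) are shown because both genes rose together. Capitals mark the core of the metal response element, TGCACNC or TGCGCNC on either strand, which occurred 3 times at Mt1 (chr8:94178839-94179118, plus strand) and 4 times at Mt2 (chr8:94172368-94172647, plus strand).
Mt1: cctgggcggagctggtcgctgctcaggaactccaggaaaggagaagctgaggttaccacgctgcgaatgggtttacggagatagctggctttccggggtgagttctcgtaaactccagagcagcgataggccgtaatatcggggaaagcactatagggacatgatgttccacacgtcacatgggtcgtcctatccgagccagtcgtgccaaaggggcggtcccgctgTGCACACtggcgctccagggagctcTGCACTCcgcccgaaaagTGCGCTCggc
Mt2: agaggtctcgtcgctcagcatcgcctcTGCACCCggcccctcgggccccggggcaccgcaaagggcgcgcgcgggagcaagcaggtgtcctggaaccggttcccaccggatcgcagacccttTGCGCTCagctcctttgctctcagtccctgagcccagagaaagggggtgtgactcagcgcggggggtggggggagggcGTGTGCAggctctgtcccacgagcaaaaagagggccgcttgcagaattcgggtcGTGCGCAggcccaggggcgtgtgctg
At least 2 such cores were found in 6.37% of 32851 promoter windows of the same length, and at least 1 in 24.1%. The window of Mt3, the brain-type metallothionein, held none. Among the 49 members with a promoter from RefSeq, 17 held at least 1 core. By window, the unit of the shares above, 20 of the 71 member windows held at least 1 core and 7 held 2 or more. Besides Mt1 and Mt2 these were Gsta1, which rose, Gstk1, which fell, and Gclm, Gsta2 and Txnl4b, which did not pass the test. Overlapping matches were counted separately in all windows, and those of Gsta1 and of Gsta2 overlap each other on opposite strands. These are matches of letters and not measured binding.

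Mt1 stood at 112, 79.5, 88.0 and 116 TMM-normalized CPM in control 1, 2, 3 and 5, and at 1321, 1507, 2838 and 1457 CPM in cisplatin 1, 3, 4 and 6. Every cisplatin library was far above every control, and cisplatin 4 was the highest. The group means were 99.0 ± 18 and 1781 ± 709 CPM (SD, n = 4), and the log2 fold change was 4.17 with a standard error of 0.31 (edgeR adjusted p = 8.7e-06), and the log2 fold change was 4.45 without cisplatin 1 and 3 and 3.87 in the first set alone. Mt2 had 4, 1, 4 and 7 counts in the controls and 238, 131, 364 and 137 in the cisplatin libraries, which is at most 0.55 CPM against at least 7.20 CPM. Its log2 fold change was 5.39 ± 0.59 (standard error, edgeR adjusted p = 8.3e-05), with 5.84 and 5.11 in the same alternatives. The level of Mt2 is uncertain, since 73.5% of its exon bases overlap a gene annotated on the opposite strand (Gm45774) and the sources used here do not say whether counting used strand. Mt3 was low in both groups, at 0.55 to 1.14 CPM in controls and 1.15 to 3.78 CPM after cisplatin, and rose with a log2 fold change of 1.57 (edgeR adjusted p = 0.012), a call that was lost in the first set alone (adjusted p = 0.060).

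Ferritin did not pass the test. Ferritin is the iron-storage shell made of heavy chains (Fth1), which oxidise iron, and light chains (Ftl1). Fth1 stood at 3760.3, 3633, 3827 and 7192 CPM in the controls and at 4097, 4141, 9455 and 8491 CPM in the cisplatin libraries. The groups overlapped, because control 5 was above cisplatin 1 and 3. The log2 fold change was 0.51 (95% interval -0.31 to 1.33, edgeR adjusted p = 0.28). Without cisplatin 1 and 3 it was 0.98 (edgeR adjusted p = 0.022), just under the fold threshold, and in the first set alone 0.08. It was 0.20 with the library set as a covariate (edgeR adjusted p = 0.25). With scaling by total library size, which raised the median of all genes by 0.57, Fth1 was called higher, at 1.06 (edgeR adjusted p = 0.020). Ftl1 stood at 698, 566, 766 and 2138 CPM in the controls and at 632, 504, 1778 and 1832 CPM after cisplatin. Here too the order of the libraries followed the library set, with control 5 the highest of all 8, and the log2 fold change of 0.19 had an interval from -1.01 to 1.39. For Ftl1, 34.4% of 100-base words are shared with pseudogenes and other loci.

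**Figure D2:**
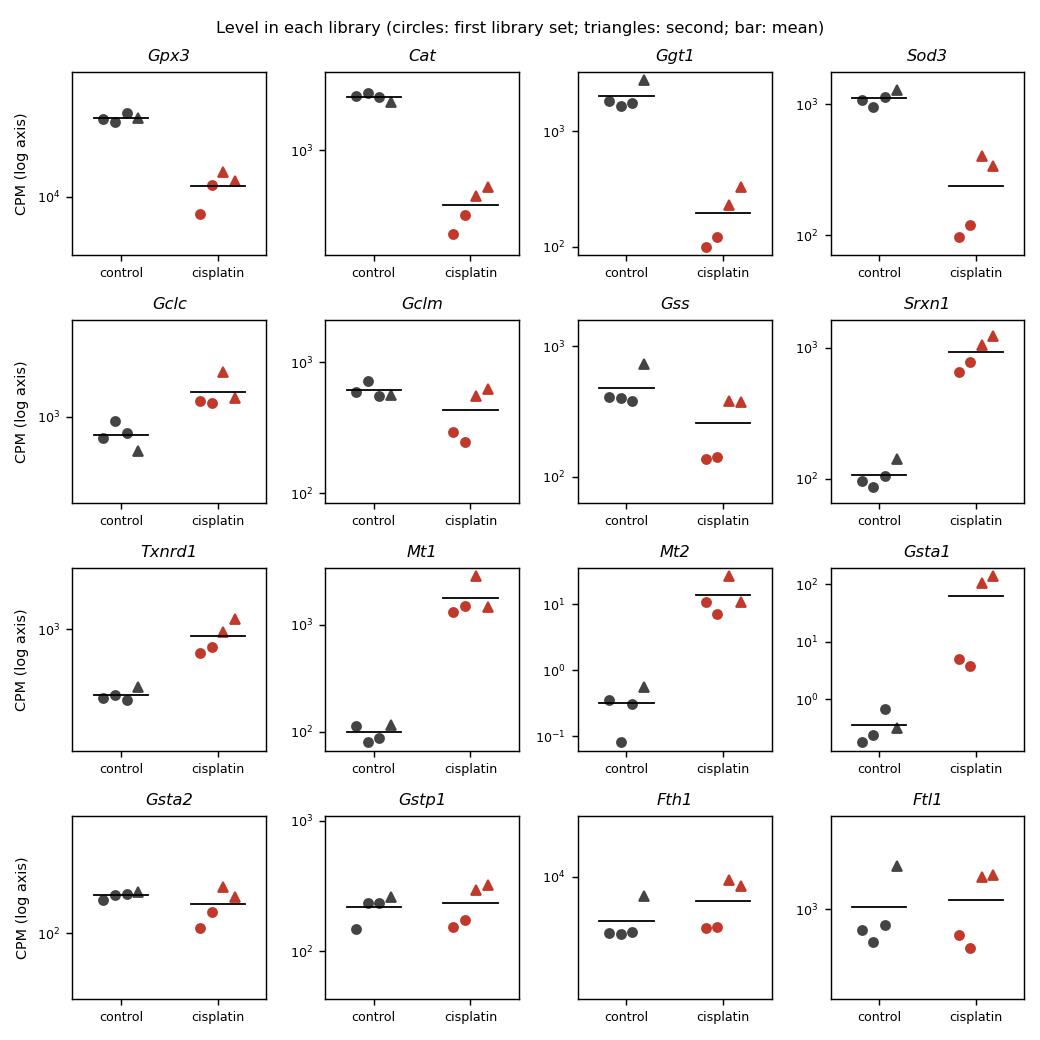
Level of 16 members in each library, in CPM on a log axis, with control in grey and cisplatin in red. Circles are libraries of the first set, triangles those of the second, and the bar is the mean of the group. Gpx3, Cat, Ggt1 and Sod3 show no overlap with cisplatin below, Srxn1, Txnrd1, Mt1, Mt2 and Gsta1 none with cisplatin above, and Fth1 and Ftl1 follow the library set.

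Of the 4 superoxide dismutase and catalase genes, 3 fell (Cat, Sod2 and Sod3) and Sod1 did not pass the test. Of all genes tested, 15.7% were lower. Catalase, the peroxisomal enzyme that splits hydrogen peroxide (chr2:103453849-103485160, minus strand, GRCm38), stood at 2611, 2736, 2545 and 2315 CPM in the controls and at 229, 321, 449 and 521 CPM after cisplatin. The highest cisplatin library was thus far under the lowest control. Its mean fell from 2551 ± 177 to 380 ± 130 CPM, to a level 6.71-fold lower, with a log2 fold change of -2.75 ± 0.27 (standard error, edgeR adjusted p = 4.5e-05). Without cisplatin 1 and 3 the log2 fold change was -2.39, and in the first set alone -3.31.

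Sod3, the extracellular superoxide dismutase, stood at 1080, 949, 1129 and 1285 CPM in the controls and at 97.1, 119, 400 and 336 CPM in cisplatin 1, 3, 4 and 6. Both libraries without Y-linked counts were the lowest, and all 4 cisplatin libraries lay under all controls. The log2 fold change was -2.22 ± 0.44 (edgeR adjusted p = 0.0025), and its size moved from -1.58 without those libraries to -3.34 in the first set alone. Sod2, the manganese enzyme of mitochondria, stood at 477, 445, 482 and 539 CPM in the controls and at 118, 110, 183 and 171 CPM after cisplatin. Its groups were as clearly apart, with a log2 fold change of -1.74 ± 0.20 (edgeR adjusted p = 0.00012). Sod1, the cytosolic copper and zinc enzyme, stood at 421, 412, 477 and 944 CPM in the controls and at 180, 152, 445 and 401 CPM after cisplatin. Control 5 was the highest by a wide margin, and cisplatin 4 was above control 1 and 2. Its log2 fold change of -0.94 had an interval from -1.85 to -0.02 (edgeR adjusted p = 0.083). Without cisplatin 4 it was called lower, at -1.21 (edgeR adjusted p = 0.043).

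Glutathione peroxidases split by member. Gpx3 is the secreted plasma enzyme, which the proximal tubule makes in large amounts. It was the most abundant member per length in controls, at 22096 CPM per kb, ahead of Fth1 (5315), Gpx1 (1539.85), Cat (976), Sod1 (872) and Ftl1 (778 CPM per kb). Gpx3 took 3.15 to 3.60% of all counts in a control library and 0.963 to 1.76% in a cisplatin library. Its gene (chr11:54902453-54910377, plus strand, GRCm38) stood at 39297, 36970.2, 43869 and 40106 CPM in the controls and at 7317, 12259, 15320.3 and 13103 CPM after cisplatin. No cisplatin library came near a control, and cisplatin 1 was the lowest. The log2 fold change was -1.74 ± 0.30 (edgeR adjusted p = 0.0010), with -1.49 without cisplatin 1 and 3 and -2.08 in the first set alone.

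Gpx1, the cytosolic peroxidase found in all cells, stood at 1853, 1658, 1944 and 3421 CPM in the controls and at 390, 498, 1062 and 1061 CPM after cisplatin. It fell with no overlap, by a log2 fold change of -1.56 ± 0.38 (edgeR adjusted p = 0.0077), and control 5 was again the highest. Gpx4, which reduces lipid peroxides in membranes and guards against ferroptosis, stood at 494, 571, 554 and 1002 CPM in the controls and at 261, 283, 645 and 559 CPM after cisplatin. Its groups overlapped, and the log2 fold change of -0.58 (interval -1.36 to 0.19, edgeR adjusted p = 0.19) became -1.04 in the first set alone and -0.11 without cisplatin 1 and 3. Of its 100-base words, 25.2% are shared with a pseudogene and another locus. Gpx6 was called lower with a log2 fold change of -1.27 (edgeR adjusted p = 0.048), but its groups overlapped, since cisplatin 1 at 58.9 CPM was above control 1 and 3 at 51.1 CPM, and the call was lost in the first set alone, at -0.60. It was also lost on leaving out any single library other than cisplatin 1, with log2 fold changes from -1.40 to -0.98, and was -1.90 without cisplatin 1.

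The peroxidases of the endoplasmic reticulum, Gpx7 and Gpx8, went the other way. Gpx7 stood at 1.59, 1.36, 1.21 and 1.89 CPM in the controls and at 6.14, 6.87, 3.88 and 6.42 CPM after cisplatin. The level was low but every cisplatin library was above every control, and the log2 fold change was 1.94 ± 0.30 (edgeR adjusted p = 0.00055). Gpx8 went from 12.3 to 13.6 CPM in controls to 19.5 to 31.5 CPM, with a log2 fold change of 1.06. It was just under the threshold, at 0.95, without cisplatin 1 and 3, at 0.96 without cisplatin 1 alone and at 0.998 without cisplatin 6.

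Gamma-glutamyltransferases likewise moved in both directions. Ggt1, the brush-border enzyme that starts the breakdown of extracellular glutathione and of glutathione conjugates, fell more than any other member tested. Its gene (chr10:75561604-75586200, plus strand, GRCm38) stood at 1836, 1659, 1748 and 2761 CPM in the controls and at 101, 122, 231 and 328 CPM in cisplatin 1, 3, 4 and 6. Even the highest cisplatin library was well under the lowest control. The mean was 10.2-fold lower, a log2 fold change of -3.36 ± 0.40 (edgeR adjusted p = 0.00014), with -2.83 without cisplatin 1 and 3 and -4.03 in the first set alone. Ggt6 fell too (log2 fold change -1.68). The low-abundance Ggt7 rose from a mean of 1.91 to 5.32 CPM (log2 fold change 1.47), a call that was lost without control 2 (edgeR adjusted p = 0.055).

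Markers of the proximal tubule and of some other nephron segments also fell. The marker counts stand beside 15.7% lower and 19.2% higher over all genes tested. All 10 proximal tubule markers of the list had usable rows, all 10 were called lower with a median log2 fold change of -4.41 (range -6.40 to -2.84), and none was at 0. Their summed level ranged from 50980 to 64920 CPM in the controls and from 662 to 12750 CPM after cisplatin, lowest in cisplatin 3 and highest in cisplatin 6. The largest part of this sum in every library was a single gene, Kap. It stood at 29704 to 35066 CPM in the controls and at 544, 229, 6220 and 11022 CPM in cisplatin 1, 3, 4 and 6. The spread of the sum between cisplatin libraries is therefore mostly that of Kap. Slc34a1, the phosphate transporter of the proximal tubule, had a log2 fold change of -5.35. Beyond the proximal tubule, both usable distal convoluted tubule markers fell (median log2 fold change -2.45), as did 1 of 2 of the thick ascending limb (Umod, -1.85), 1 of 2 of intercalated cells and 1 of 2 erythroid markers. Neither podocyte marker nor either endothelial marker was called, 1 of 3 principal cell markers rose, and so did Col1a1 (3.05), the only usable fibroblast marker. Endothelial Kdr passed the adjusted p (0.015 by edgeR) at a log2 fold change of -0.94. Slc12a1 of the thick ascending limb was at -1.78 (edgeR adjusted p = 0.060). For Kdr and Slc12a1 all cisplatin libraries lay below all controls. Adipocyte and adrenal markers were too low to be tested. In whole kidney RNA, fewer cells of a type and less RNA per cell cannot be told apart, and the part of the markers' change in the result for any redox gene was not tested. All 3 markers of injured tubule rose (Havcr1 by a log2 fold change of 8.27, Lcn2 by 9.23). Of 6 leukocyte markers with usable rows, 4 rose and 1 fell, and their sum, 55.6 to 101 CPM in controls and 39.3 to 102 CPM after cisplatin, overlapped between the groups.

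Glutathione synthesis did not move as a unit. Gclc encodes the catalytic subunit of glutamate-cysteine ligase, the rate-limiting enzyme, and Gclm its modifier subunit. Gclc stood at 690, 928, 752 and 547 CPM in the controls and at 1317, 1280, 2215 and 1391 CPM after cisplatin. All cisplatin libraries were above all controls and cisplatin 4 was the highest. The log2 fold change of 1.09 ± 0.25 (edgeR adjusted p = 0.0050) was near the threshold, and it was 0.66 in the first set alone, 0.86 without cisplatin 4 and 0.96 without control 5, no longer a call in these 3 settings. Gclm stood at 591, 724, 556 and 560.1 CPM in the controls and at 295, 245, 556 and 626 CPM after cisplatin. Cisplatin 1 and 3 were well under the controls, cisplatin 4 was level with the lowest control and cisplatin 6 was within their range. The log2 fold change was -0.50 (interval -1.17 to 0.17, edgeR adjusted p = 0.19), which was -1.27 in the first set alone, a call there (edgeR adjusted p = 0.00034), and -0.04 without cisplatin 1 and 3. Gss, glutathione synthetase, stood at 408, 403, 377 and 729 CPM in the controls and at 138, 142, 384 and 371 CPM after cisplatin. Its groups overlapped by little, with cisplatin 4 just above control 3, and the log2 fold change was -0.89 (interval -1.76 to -0.02, edgeR adjusted p = 0.084). Without cisplatin 4 it was called lower, at -1.15 (edgeR adjusted p = 0.045).

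Glutathione S-transferases held the largest rise among the members and also 2 of the falls. Of 12 tested, 4 rose (Gsta1, Gstp3, Gstm6, Gsta4), 2 fell (Gstz1, Gstk1) and 6 did not pass the test. Over all genes tested, 19.2% were higher and 15.7% lower, so the count of falls is near that share. The proximal promoters of Gsta1 and of its relative Gsta2 are shown because only Gsta1 was called, while the windows were 83% identical over aligned bases. Capitals mark stretches of at least 12 bases shared by both windows, 94 bases in all (Gsta1 at chr9:78230419-78230698, plus strand, and Gsta2 at chr9:78347116-78347395, minus strand, 250 bases before the start and 30 after it, RefSeq, GRCm38.p6).
Gsta1: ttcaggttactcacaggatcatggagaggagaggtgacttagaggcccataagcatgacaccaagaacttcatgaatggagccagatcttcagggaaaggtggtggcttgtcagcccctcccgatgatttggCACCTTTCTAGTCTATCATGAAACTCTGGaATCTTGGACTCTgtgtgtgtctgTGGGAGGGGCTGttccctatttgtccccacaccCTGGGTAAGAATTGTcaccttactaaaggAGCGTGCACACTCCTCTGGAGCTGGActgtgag
Gsta2: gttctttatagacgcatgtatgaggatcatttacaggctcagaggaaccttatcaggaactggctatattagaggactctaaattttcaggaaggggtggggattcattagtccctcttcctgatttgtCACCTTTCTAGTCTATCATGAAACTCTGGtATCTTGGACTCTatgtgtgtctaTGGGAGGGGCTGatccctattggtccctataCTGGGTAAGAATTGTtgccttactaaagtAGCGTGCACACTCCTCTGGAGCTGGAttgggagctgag

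Gsta1, an alpha-class transferase, had 2, 3, 9 and 4 counts in the controls and 111, 70, 1434 and 1756 counts in cisplatin 1, 3, 4 and 6. This was at most 0.68 CPM in a control, 5.05 and 3.85 CPM in cisplatin 1 and 3 and 105 and 139 CPM in cisplatin 4 and 6, so all 4 were above the controls and the second set was far above the first. The log2 fold change was 7.42 ± 1.39 (edgeR adjusted p = 0.0018), 8.37 without cisplatin 1 and 3, 6.69 without cisplatin 6 and 3.49 in the first set alone, so its size depends on which cisplatin libraries are used. Of the 100-base words of Gsta1, 80.6% also occur in Gsta2, Gm3776 or Gm10639, so its counts depend on how reads with several matches were handled, which is not given in the sources used here. Gsta2 itself stood at 179 to 207 CPM in controls and at 110.4 to 225 CPM after cisplatin, with a log2 fold change of -0.22 (interval -0.69 to 0.26).

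Gstp3, a pi-class transferase, had 3, 3, 0 and 7 counts in the controls and 63, 42, 231 and 172 counts after cisplatin. It rose from at most 0.55 CPM to at least 2.31 CPM, with a log2 fold change of 5.04 ± 0.92 (edgeR adjusted p = 0.0016), 3.87 in the first set alone and 5.67 without control 5. Its neighbours on chromosome 19 did not pass the test, with log2 fold changes of 0.10 for Gstp1 and 0.75 for Gstp2, which share sequence with each other. Gstp2 was called higher without cisplatin 1 and 3, at 1.575 (edgeR adjusted p = 0.040), and was at -0.75 in the first set alone. With the library set as a covariate Gstp2 was at -0.09. Gsta4, which detoxifies 4-hydroxynonenal, rose from a mean of 32.9 ± 6.8 to 75.6 ± 4.4 CPM (log2 fold change 1.20, edgeR adjusted p = 0.00033), and was alike with and without cisplatin 1 and 3 (1.24 without them). Gstz1, the zeta-class enzyme of tyrosine breakdown, stood at 505, 596, 506 and 632 CPM in the controls and at 84.9, 90.8, 221 and 161 CPM after cisplatin. It fell with no overlap, by a log2 fold change of -2.0 ± 0.31 (edgeR adjusted p = 0.00058). Gstm1, the most abundant S-transferase analysed, per length, in controls at 561 CPM per kb, had a log2 fold change of 0.18 that was 0.74 without cisplatin 1 and 3 and -0.61 in the first set alone.

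In the thioredoxin and peroxiredoxin system, Srxn1, Txnrd1 and Txnip rose and none of the 4 peroxiredoxins tested passed the test. Sulfiredoxin repairs overoxidised peroxiredoxins. Srxn1 (chr2:152105516-152111376, plus strand, GRCm38) stood at 95.5, 86.6, 104 and 141 CPM in the controls and at 656, 781, 1047 and 1227 CPM after cisplatin. The lowest cisplatin library was well above the highest control. The mean was 8.70-fold higher, with a log2 fold change of 3.12 ± 0.26 (edgeR adjusted p = 1.7e-05), 3.42 without cisplatin 1 and 3 and 2.86 in the first set alone. Prdx1, a cytosolic peroxiredoxin, stood at 1123, 1174, 1050.4 and 1358 CPM in the controls and at 658, 538, 999 and 1077 CPM after cisplatin. Only cisplatin 6 reached the range of the controls, and the log2 fold change was -0.52 (interval -1.07 to 0.02, edgeR adjusted p = 0.099). Prdx2, Prdx4 and Prdx5 had log2 fold changes between -0.30 and 0.18.

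Txnrd1 encodes the cytosolic thioredoxin reductase. It stood at 298, 316, 288 and 359 CPM in the controls and at 663, 738, 955 and 1202 CPM after cisplatin. All cisplatin libraries were above all controls, with a log2 fold change of 1.5 ± 0.21 (edgeR adjusted p = 0.00038), 1.78 without cisplatin 1 and 3 and 1.16 in the first set alone. Txnip, the inhibitor that binds thioredoxin, rose as well, from 574, 605, 531 and 364 CPM in the controls to 1368, 1154, 1195 and 1206 CPM. The 4 cisplatin kidneys were close to each other, and the log2 fold change was 1.25 ± 0.20 (edgeR adjusted p = 0.00064). Txnrd3, a reductase best known from testis, passed the adjusted p (0.022 by edgeR) but at a log2 fold change of 0.45. Of the 5 thioredoxin-domain proteins tested, Txndc16 fell (log2 fold change -1.63) and Txndc9 passed the adjusted p at 0.72.

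A start site of Txnrd1 carried the antioxidant response element core, and its window is shown as the example of that element in a gene that rose (chr10:82858956-82859235, plus strand, RefSeq, GRCm38.p6). Capitals mark the core, TGACNNNGC on either strand.
Txnrd1: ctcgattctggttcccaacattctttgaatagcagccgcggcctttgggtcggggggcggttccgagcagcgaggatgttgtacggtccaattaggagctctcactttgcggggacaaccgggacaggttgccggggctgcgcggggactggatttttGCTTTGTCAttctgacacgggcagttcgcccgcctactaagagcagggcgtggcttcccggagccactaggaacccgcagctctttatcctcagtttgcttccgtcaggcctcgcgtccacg
RefSeq gave a promoter for 49 of the 54 members, 71 windows in all. The core was found in 7 of these windows, of Gclm, Ggt1, Mt2, Prdx1, Sod1 and Txnrd1, against 11.5% of all promoter windows. These 6 genes included 2 that rose, 1 that fell and 3 that did not pass the test. In Mt2 the match overlapped an AP-1 site, TGACTCA.

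The smaller families held few calls. Glrx, Glrx2 and Glrx5, glutaredoxins that use glutathione to reduce disulfides, had log2 fold changes of 0.23, -0.37 and 0.60 and none passed the test. Glrx5 was called higher without cisplatin 1 and 3, at 1.16 (edgeR adjusted p = 0.015), and by total library size, at 1.15 (edgeR adjusted p = 0.024). In the first set alone it was at 0.05, and with the library set as a covariate at 0.21 (edgeR adjusted p = 0.12). Glrx5 stood at 139 CPM in control 5, against 63.7 to 65.5 CPM in control 1, 2 and 3. The quinone reductase Nqo2 and the constitutive heme oxygenase Hmox2 were lower in all 4 cisplatin libraries, and both passed the adjusted p but not the fold threshold, with log2 fold changes of -0.75 (edgeR adjusted p = 0.0029) and -0.59 (edgeR adjusted p = 0.0036). These falls depend on the scaling. By total library size the log2 fold changes were -0.17 for Nqo2 and -0.02 for Hmox2 (edgeR adjusted p = 0.42 and 0.91). For Hmox2, 40.2% of exon bases overlap Cdip1 on the opposite strand, and for Nqo2 18.9% overlap Serpinb6a. The like overlap was 19.4% for Txnip (Gm15441) and 19.1% for Prdx5 (Trmt112).

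Many members also differed between the library sets. In 30 of the 51 members tested (58.8%), every library of the second set was above every library of the first within both groups, against 23.2% of all genes. The opposite order was found for Txndc16 and Txndc12, 3.92% against 20.7%. The sets were read from these same data, so this is a description. Gss, Sod1, Gpx4 and Prdx5 were lower after cisplatin within each set while the pooled test did not call them. In the first set alone all 4 were called lower, with log2 fold changes of -1.56, -1.45, -1.04 and -1.10. In the second set, where control 5 is the only control, no test was run, and the log2 ratios were -0.95, -1.16, -0.73 and -0.53. With the library set as a covariate Gss and Sod1 were called lower, both at a log2 fold change of -1.31 (edgeR adjusted p = 3.0e-05 and 1.7e-05), while Gpx4 at -0.90 and Prdx5 at -0.86 stayed under the fold threshold. Since the sets were read from these same libraries, p-values of this fit and of the first set alone may be too small.

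**Figure D3:**
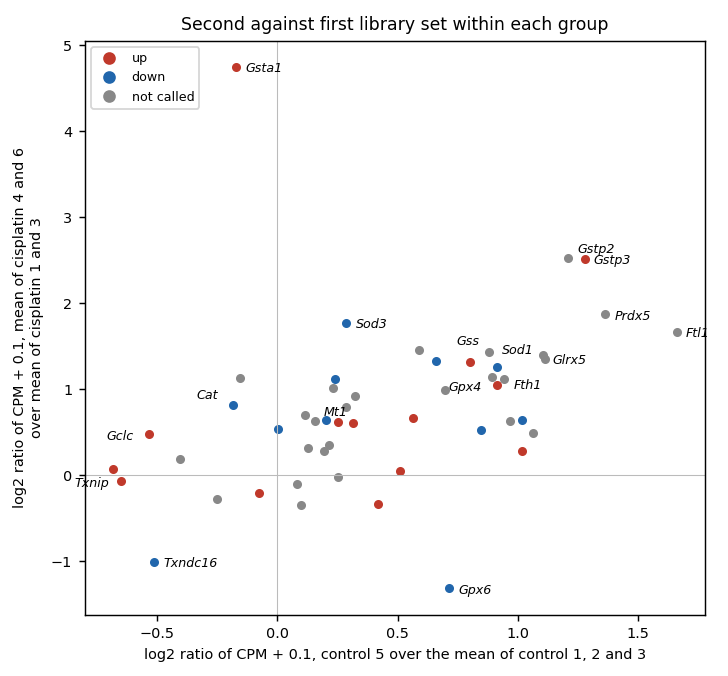
Log2 ratio of the second to the first library set for the 51 members tested, within controls (control 5 over the mean of control 1, 2 and 3, horizontal) and within cisplatin libraries (mean of cisplatin 4 and 6 over mean of cisplatin 1 and 3, vertical), from CPM plus 0.1. Colours give the call of cisplatin against control, and most points lie right of and above 0, with Ftl1 and Prdx5 far along both axes and Gsta1 high in the cisplatin libraries only.

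**Figure D4:**
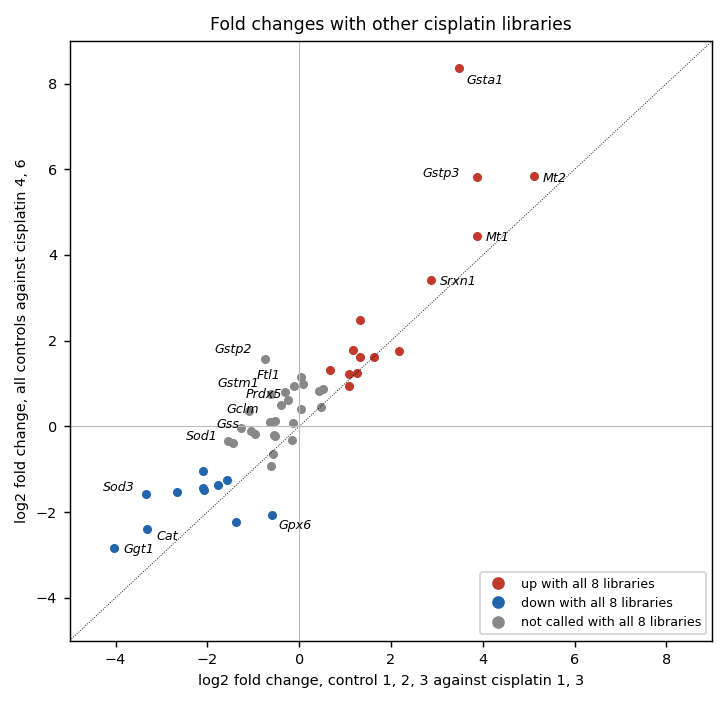
Log2 fold change of the 51 members in the first library set alone (control 1, 2 and 3 against cisplatin 1 and 3, horizontal) and without cisplatin 1 and 3 (all 4 controls against cisplatin 4 and 6, vertical), which share 3 controls. The dotted line marks equal values, and most members lie above it, with Gsta1 (3.49 and 8.37) the farthest off.

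Genes next to these pathways were read from a list of 93, of which 53 had usable rows and 52 were tested. Of these, 11 were higher and 20 were lower, against 19.2% and 15.7% of all genes tested, and the median log2 fold change was -0.43 against 0.08 over all genes. Among Nrf2 and its partners 3 of 4 rose. Nfe2l2, which encodes Nrf2, stood at 244, 264, 251 and 174 CPM in the controls and at 549, 598, 451 and 501 CPM after cisplatin. No libraries overlapped, and the log2 fold change was 1.17 ± 0.18 (edgeR adjusted p = 0.00058). The small Maf genes Maff (4.76) and Mafk (2.73) were, with Slc7a11, the called genes of the list with the largest log2 fold changes upward, and Keap1, the Nrf2 inhibitor, is not analysed here.

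By group the counts were small, and they stand beside the same 15.7% lower and 19.2% higher over all genes tested. Among genes of cysteine supply and glutathione turnover 7 of 10 fell and 2 rose. Slc7a11, the cystine importer, rose with a log2 fold change of 3.57 ± 0.55 (edgeR adjusted p = 0.00061) from at most 0.55 CPM in controls to 2.25 to 7.69 CPM. Of 4 genes of conjugate export and mercapturate formation 3 fell, and Acy3, the aminoacylase that acts on mercapturic acids, went from 3563 to 4405 CPM in controls to 62.1 to 389 CPM (log2 fold change -4.23). Among 8 oxidant-producing enzymes 4 fell and 1 rose. Dao, the peroxisomal D-amino acid oxidase, and Hao2, a peroxisomal hydroxyacid oxidase, both of which release hydrogen peroxide, had log2 fold changes of -4.37 and -3.55. Among 5 tested genes of NADPH supply 2 rose and 2 fell. The single row read for Nnt held 0 counts in all 8 libraries. Any further row of that name was not read, so the level of Nnt is not known from this. In the metal and heme group 1 of 12 rose and 4 fell.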

How the data were processed

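Bulk RNA-seq of 4 control and 4 cisplatin kidneys was analysed. According to the study's methods and the submitters' processing notes, reads were cleaned with fastp and aligned to GRCm38 with HISAT2, and the authors deposited raw counts per gene. The counting tool, its strand setting and its handling of multiply matching reads are not given in the sources used here. The methods and the labels name different library kits. Of 53715 rows, 17835 (33.2%) held 10 values and were left out, so totals cover part of each library, and the 2 unnamed extra columns were not used. Of the IDs used, 35818 were in GENCODE M21, 34923 at the same position.

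Counts were fitted in R 4.3.3 with edgeR 4.0.16 (default expression filter, TMM, quasi-likelihood test, Benjamini-Hochberg over 9141 genes). The standard error is the absolute log2 fold change over the square root of F. Libraries of the same group differed by more than sampling noise. The code was tested on simulated data. The study names DESeq2, which was an alternative (1.42.0), beside other scalings and filters, a replicate block, the library set as covariate or alone, and left-out libraries. Libraries were grouped by label, and the library sets by an earlier principal component analysis.

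Members and gene lists were chosen with earlier results of these data known. Values in every library are given for the 6 risers and 6 fallers of greatest log2 fold change among called members averaging at least 1 CPM, the 6 with the highest CPM per kb in controls, and members picked for their role. Of the neighbouring pathway list, 3 genes per direction are named, plus Nfe2l2, Keap1 and Slc7a11. The other members, and Nnt, Kdr and Slc12a1, were named after their values were seen. Motifs were matched on both strands, without testing.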

Additional observations from a re-analysis of the deposited data

Results flagged for a closer look

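Among 102 groups of 4 libraries examined for the members, 15 had a highest or lowest library whose gap to its nearest neighbour, divided by the range of the group, was above Dixon's 95% critical value, where chance gives about 1 in 20 groups. The groups come from the same 8 libraries and are not independent, and the like count over all genes was not made. In 12 of the 15, control 5 was the highest control. This share of the range was 0.912 for Gss, 0.946 for Glrx2, 0.976 for Glrx5, 0.871 for Gstk1, 0.84 for Ggt1, 0.837 for Gpx1, 0.847 for Gpx4, 0.857 for Prdx5, 0.908 for Prdx2, 0.878 for Sod1, 0.873 for Ftl1 and 0.945 for Fth1. Control 5 is also the only control of the second library set, and the part of the set in these gaps was not tested.

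In the cisplatin group, cisplatin 4 stood above the other libraries for Gclc (0.882) and Mt1 (0.877), and cisplatin 3 stood below them for Glrx2 (0.882). Acy3, a gene of the neighbouring pathway list, had control 2 below the other controls (0.889).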

How the results depend on the processing

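DESeq2, DESeq2's size factors in edgeR, no filter and removal of the most abundant genes changed the call of no member that they fitted. Scaling by total library size moved the median of all genes by 0.566 on the log2 scale, with 20 members higher and 9 lower, 17 pathway genes higher and 12 lower, and 3174 genes higher and 803 lower in all. By that scaling Gstk1 (-0.94) and Gpx6 (-0.65) lost their calls. Glrx5, Gsto2, Txnrd3, Txnl4a, Txndc9 and Fth1 were called higher by it alone or beside other settings. Requiring 10 counts in every library left 9 members and 1101 genes higher, since fewer genes were tested. With each library left out in turn, 13 to 14 members were higher and 10 to 12 lower, 11 to 14 pathway genes higher and 17 to 21 lower, and 1559 to 1848 genes higher and 1351 to 1533 lower, and 21 of the 25 called members kept their call in every such fit. No called member changed sign in any setting, while 15 members that were not called did in at least 1. Gstm1 turned to -0.61 in the first library set alone, and the cause was not tested. Gpx6 was called lower in the main test but lost its call in 7 of the 8 fits that left out a library. Replicate numbers 1 and 3 occur in both groups, but the numbers are not said to mark a pairing, and same-numbered libraries correlated at 0.25 and 0.28 against 0.15 to 0.36 for other pairs of the first set. With the replicate block only numbers 1 and 3 inform the fold change. That fit thus compares control 1 and 3 with cisplatin 1 and 3, all of the first set, and is not a check over all 8 libraries. It gave 12 members higher and 14 lower, and 1710 and 1404 over all genes. Gclc (0.85), Mt3 (1.05) and Gpx6 (-0.48) lost their calls in it, and Gss (-1.49), Sod1 (-1.44), Prdx5 (-1.13) and Gclm (-1.09) gained 1. Depth limits Mt2, Gstp3 and Gsta1 in the controls, where single libraries hold 0 to 9 counts.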
